A study of Caenorhabditis elegans with 12 samples.

Results

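The comparison described here is the effect of heat shock averaged over 2 genotypes of *Caenorhabditis elegans*, read from all 12 libraries of the series, of which 6 came from heat-shocked animals and 6 from animals left at 20 °C. The members were chosen by treatment alone, and the heat shock coefficient was taken from an additive model of genotype and treatment, so that every gene received a single effect adjusted for genotype. The genotypes were N2, the wild type, and the mutant *hsf-1*(*sy441*). Each had 3 untreated samples and 3 samples heated to 35 °C for 30 min, with 1 h of recovery at the control temperature. All samples were whole animals on day 1 of adulthood, grown on *E. coli* OP50. The sy441 product is considered to lack the transactivation domain of HSF-1, and the mutant strain had been outcrossed to the wild type. Because sy441 is not a deletion, the level of *hsf-1* RNA does not test the genotype labels. The average is 1 coefficient fitted to the counts of both genotypes and describes neither by itself, and a gene with counts in only 1 genotype takes its value almost wholly from that genotype.

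In the heat shock response, the transcription factor HSF-1 forms trimers, binds its elements in promoters and drives genes for chaperones, proteins that hold or refold damaged proteins. The small heat shock proteins of the *hsp-16* family bind unfolding proteins without using ATP, while HSP70 proteins refold them in ATP-driven cycles. In *C. elegans*, other programs act beside HSF-1 in stress, among them the response to unfolded proteins in the endoplasmic reticulum (ER), autophagy, and the turnover of proteins by ubiquitin ligases. The intestine is the main organ of digestion, fat storage, detoxification and yolk synthesis in this animal.

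The libraries held between 68188334 and 109248499 counts (median 79763950). Levels are TMM-scaled counts per 1000000 (CPM), and fold changes are heat shock over control. With the genotype means removed, the second principal component (19.1% of the variance) placed the 6 heat-shocked libraries between -54.8 and -13.4 and the 6 controls between 24.9 and 71.6, with no overlap. The first component (25.3%) did not follow treatment. On it, N2 control replicate 3, N2 heat shock replicate 1 and *hsf-1*(*sy441*) heat shock replicate 1 lay at 65.0, 80.6 and 59.9, and the other 9 libraries between -70.5 and 20.0. Ribosomal RNA took 8.10% and 7.97% of the counts in replicate 1 of the untreated and the heat-shocked mutants and at most 4.58% elsewhere. The titles call the samples biological replicates without saying whether each was a separate culture, and the p-values reflect only how much these samples varied.

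**Figure D1:**
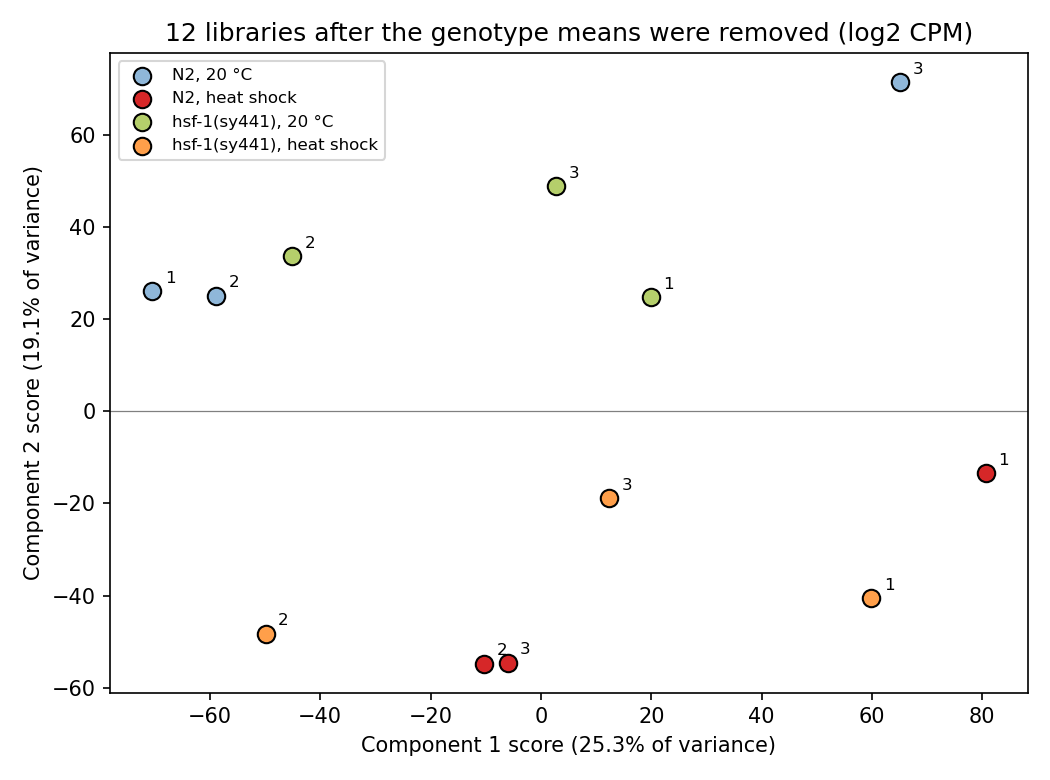
Scores of the 12 libraries on the first 2 principal components of log2 CPM after the genotype means were removed; each point is a library, numbered by replicate, and colors are the 4 groups. Heat-shocked libraries all lie below 0 and controls all above 0 on component 2, while component 1 sets 3 libraries of different groups apart.

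Of 17946 genes tested, 481 were called (2.68%), meaning an edgeR adjusted p under 0.05 for the average effect. Of these, 245 were higher after heat shock (1.37% of the tested genes) and 236 were lower (1.32%). The rises were larger than the falls: the median log2 fold change was 1.76 among the genes called higher and -1.21 among those called lower, against 0.02 over all tested genes. A change of at least 4-fold was seen in 102 of the rises and 29 of the falls. In 102 of the 245 higher genes all 6 heat-shocked libraries lay above all 6 controls, and in 129 of the 236 lower genes all lay below; over all tested genes these patterns were found in 0.786% and 0.914%. Within each genotype taken by itself, the treatments were apart in the called direction in 200 of the higher and 208 of the lower genes, against 1.83% and 1.99% of all tested genes. The count of calls was sensitive to single libraries. It dropped to 320 without *hsf-1*(*sy441*) control replicate 2. It rose to 1140 when N2 control replicate 3, N2 heat shock replicate 1 and replicate 1 of both mutant groups were left out together. None of the 481 genes was called in the opposite direction in these fits. Changes of sign without a call were not counted.

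The 6 *hsp-16* genes, which encode small heat shock proteins of the cytosol, were all higher, with log2 fold changes between 4.65 and 6.95. Their summed level ran from 59.6 to 211 CPM in the controls (median 126) and from 1677 to 11310 CPM after heat shock (median 3490). The smallest p of all genes belonged to *hsp-16.2* (WBGene00002016, chromosome V from 1804334 to 1804957, WBcel235), which had 0.904, 3.48 and 8.23 CPM in the lowest, median and highest control and 95.9, 351 and 942 CPM after heat shock (log2 fold change 6.50, SE 0.34, edgeR adjusted p = 2.23e-07). The lowest heat-shocked library thus lay far above the highest control. Its neighbor *hsp-16.41* rose from 1.97, 3.31 and 9.4 CPM to 126, 439 and 2407 CPM (log2 fold change 6.95, SE 0.51, edgeR adjusted p = 3.85e-06). Elsewhere on chromosome V, *hsp-16.1*, *hsp-16.48*, *hsp-16.49* and *hsp-16.11* lie between 9087293 and 9090604. These form 2 near-identical pairs whose reads may be shared, and accordingly *hsp-16.1* and *hsp-16.11* (log2 fold changes 4.94 and 4.92) and *hsp-16.48* and *hsp-16.49* (both 4.65) cannot be read as independent measurements. The rises in N2 and in *hsf-1*(*sy441*) were 6.75 and 6.24 on the log2 scale for *hsp-16.2*, and 5.81 and 3.49 for *hsp-16.48*. None of the 6 genes had a called interaction of genotype and heat shock.

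Among 8 tested genes of the HSP70 family, 3 were higher (37.5%, against 1.37% of all tested genes) and none was lower. *hsp-70* (WBGene00002026, chromosome I from 9320325 to 9322519), which encodes a heat-inducible cytosolic HSP70, had 3.94, 5.68 and 8.54 CPM in the lowest, median and highest control and 82.5, 328 and 478 CPM after heat shock (log2 fold change 5.41, SE 0.37, edgeR adjusted p = 3.63e-06). Its 3 lowest heat-shocked values, 82.5, 128 and 295 CPM, were those of the mutants, and no heat-shocked library overlapped the controls. The gene lies within *uggt-2*, which is on the opposite strand and was not called (log2 fold change 1.17, edgeR adjusted p = 0.278). The strand setting of the counts is not given. *F44E5.4* and *F44E5.5*, a near-identical pair of inducible HSP70 genes, rose with log2 fold changes of 3.81 and 3.80 (edgeR adjusted p = 0.00167 for both). *F44E5.4* had 24.9, 35.7 and 57.3 CPM in the controls and 235.07, 304 and 2126 CPM after heat shock, where the highest library was *hsf-1*(*sy441*) replicate 1. By contrast, the constitutive cytosolic HSP70 gene *hsp-1* had a control median of 2550 CPM and a heat shock median of 2862 CPM (log2 fold change 0.14, SE 0.19). *hsp-110*, which encodes a nucleotide exchange factor of HSP70, was not called either (log2 fold change 0.51, SE 0.22, edgeR adjusted p = 0.371).

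Of 12 other small heat shock protein genes, 2 were called, both higher (16.7%, against 1.37% of all tested genes). *hsp-12.6* had 0.555, 1.17 and 1.97 CPM in the controls and 2.02, 3.77 and 11.2 CPM after heat shock (log2 fold change 1.94, edgeR adjusted p = 0.00902). Its groups did not overlap, but the call was lost when replicate 1 of both mutant groups was left out (edgeR adjusted p = 0.0586). *hsp-17* had 15.2, 39.2 and 56.8 CPM in the controls and 72.1, 124 and 199 CPM after heat shock (log2 fold change 1.72, edgeR adjusted p = 0.0177). Its call was lost without N2 control replicate 3 or without *hsf-1*(*sy441*) control replicate 2.

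**Figure D2:**
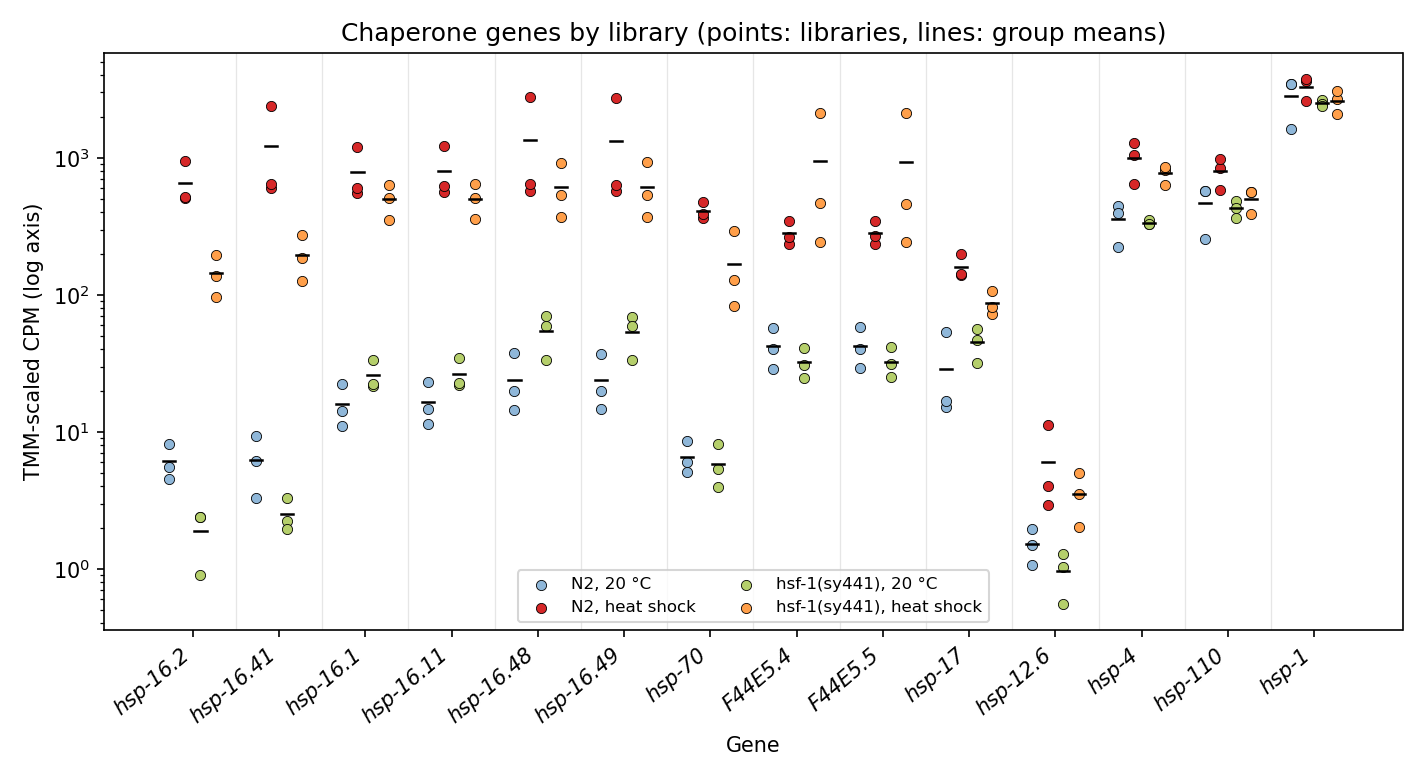
CPM (log axis) of 14 chaperone genes in each of the 12 libraries; points are libraries, lines the means of the 4 groups of 3. For the 6 *hsp-16* genes, *hsp-70* and the *F44E5.4* and *F44E5.5* pair every heat-shocked library lies above every control, whereas the groups overlap for *hsp-110* and *hsp-1*.

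No gene for HSP90, for the cofactors of these chaperones, for the chaperonin CCT or for the proteasome was called on the average. In edgeR none of 14 tested genes for HSP90 and the cochaperones of HSP90 and HSP70, none of 14 subunits of the chaperonin CCT and of prefoldin, none of 29 members of the DnaJ family and none of 31 proteasome subunits passed the test. At an unadjusted p under 0.05 the same lists held 0, 0, 1 and 0 genes, and DESeq2 called 0 in each. In the same order, the median log2 fold changes were 0.376, 0.205, 0.007 and 0.0375 in N2. In *hsf-1*(*sy441*) they were -0.003, -0.041, 0.024 and 0.092. The summed level of the HSP90 and cochaperone list was 4999 to 7849 CPM in N2 controls and 8304 to 9344 CPM in heat-shocked N2. In the mutants it was 4544 to 5220 CPM and 4463 to 5437 CPM. No member of these lists had a called interaction. Among the cochaperones, *hip-1*, *sti-1* and *dnj-7* had log2 fold changes of 0.41 (SE 0.23), 0.39 (SE 0.20) and 0.38 (SE 0.17). For *hsf-1* and its regulators, 12 genes in all, results were similar, with log2 fold changes from -0.16 for *sir-2.1* to 0.74 for *pqm-1* (SE 0.32, edgeR adjusted p = 0.381). None of them was called by either tool, and 1 had an unadjusted p under 0.05. *hsf-1* itself had 67.6, 97.7 and 154 CPM in the lowest, median and highest control and 76.6, 108 and 129 CPM after heat shock (log2 fold change 0.00, SE 0.20), and the groups overlapped.

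Of 27 ER stress and ER folding genes, edgeR called 2 higher (7.41%, against 1.37% of all tested genes) and none lower. DESeq2 called 4 higher and 1 lower, and 7 rises and 1 fall had an unadjusted edgeR p under 0.05. A positive log2 fold change was seen in 25 of the 27 (median 0.17). *ckb-2*, which encodes a choline kinase of phospholipid synthesis, had 13, 16.9 and 29.9 CPM in the controls and 51.2, 63.7 and 81.8 CPM after heat shock (log2 fold change 1.83, SE 0.18, edgeR adjusted p = 7.53e-05). It was also called within each genotype, with 1.56 in N2 and 2.09 in the mutants. The BiP gene *hsp-4*, for the main HSP70 of the ER lumen, had 223, 341 and 446 CPM in the controls and 630.4, 840 and 1284 CPM after heat shock (log2 fold change 1.34, SE 0.20, edgeR adjusted p = 0.00192). For both genes the lowest heat-shocked library was above the highest control.

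In several other stress lists edgeR called a single member higher. Of 27 autophagy genes this was *sqst-1* (3.7%, against 1.37% of all tested genes), the gene of the autophagy receptor related to mammalian p62. DESeq2 called 2 higher, 4 rises had an unadjusted edgeR p under 0.05, and 22 had a positive log2 fold change. The summed level of the list was 2066 to 2327 CPM in the controls and 2367 to 2652 CPM after heat shock. *sqst-1* had 24.3, 34.1 and 118 CPM in the controls and 97.6, 140 and 199 CPM after heat shock (log2 fold change 1.72, SE 0.28, edgeR adjusted p = 0.0036). The value of 118 CPM came from *hsf-1*(*sy441*) control replicate 1 and overlapped the heat-shocked libraries. Without N2 control replicate 3 and N2 heat shock replicate 1 the edgeR adjusted p was 0.0599. Of 30 ubiquitin, Skp1-related and cullin genes, *skr-3*, a Skp1-related subunit of SCF ubiquitin ligases, was called higher (3.33%, against 1.37%). It had 19.4, 31.2 and 57.4 CPM in the controls and 58.3, 73.1 and 87.3 CPM after heat shock (log2 fold change 1.23, SE 0.18, edgeR adjusted p = 0.00167). Of 16 genes of the mitochondrial unfolded protein response, 1 was called, and it was higher (6.25%, against 1.37%). This was *dve-1*, which encodes a homeodomain transcription factor (log2 fold change 1.03, edgeR adjusted p = 0.00696). The cadmium-responsive gene *cdr-4* rose, without overlap, from 9.56, 20.7 and 31.1 CPM to 72.8, 153 and 262 CPM (log2 fold change 2.75, SE 0.37, edgeR adjusted p = 0.00103). Its log2 fold changes in N2 and in the mutants were 3.66 and 1.84. Of 15 cadmium-responsive and metal-binding genes, 1 was higher and 1 was lower (6.67% each, against 1.37% and 1.32% of all tested genes). The lower gene was *ttm-2* (log2 fold change -1.77). Its call was lost without N2 control replicate 3 or without *hsf-1*(*sy441*) heat shock replicate 3.

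Among 27 genes for transcription factors of stress responses, 2 were higher (7.41%) and 1 was lower (3.7%). Over all tested genes the shares were 1.37% and 1.32%. *zip-10*, a bZIP factor, had 1.89, 3.82 and 17.6 CPM in the controls and 18, 22.1 and 44 CPM after heat shock (log2 fold change 2.36, SE 0.40, edgeR adjusted p = 0.00453). Its highest control was just under its lowest heat-shocked library, and the call was lost without N2 control replicate 3 and N2 heat shock replicate 1 together (edgeR adjusted p = 0.0727). *fos-1*, of the AP-1 family, rose less (log2 fold change 0.64, edgeR adjusted p = 0.0412), and its call was lost in 9 of 12 leave-one-out fits, each without a single library. *zip-3*, another bZIP gene, was lower, with 17.2, 27.5 and 37.5 CPM in the controls and 9.19, 12.58 and 15.8 CPM after heat shock (log2 fold change -1.1, edgeR adjusted p = 0.00192).

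Apart from chaperones, steep rises were found in genes with almost no counts at 20 °C. *spp-21*, a gene of the saposin-like family, had no count in any control and 0.543, 0.946 and 9.68 CPM in the lowest, median and highest heat-shocked library. Against a floor of 3 counts over the 6 controls, it was at least 374-fold higher, a bound that covers counting error only (edgeR adjusted p = 0.00309). Genes of the Y53F4B stretch of chromosome II rose steeply as well, with *Y53F4B.43*, *Y53F4B.7* and *Y53F4B.8* between 14988471 and 14997446 and *Y53F4B.62*, *Y53F4B.24* and *Y53F4B.26* between 15129385 and 15140981. *Y53F4B.26* had at most 0.0241 CPM in the controls and 0.937, 3.10 and 9.19 CPM after heat shock (log2 fold change 8.24, SE 0.64, edgeR adjusted p = 6.63e-06). *Y53F4B.8*, annotated as a pseudogene, had 0.196, 0.487 and 1.17 CPM in the controls and 5.61, 26.7 and 53.8 CPM after heat shock (log2 fold change 5.61, edgeR adjusted p = 0.00065). *Y53F4B.7* and *Y53F4B.62* rose by 7.64 and 4.98 on the log2 scale. At all of these the heat-shocked libraries stood above all controls. *C25F9.2*, on chromosome V, had at most 0.362 CPM in the controls and 1.4, 7.75 and 57.3 CPM after heat shock (log2 fold change 6.11, edgeR adjusted p = 0.000152).

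Further large rises were found in other genes. *ZK1240.1* and *ZK1240.8* on chromosome II had log2 fold changes of 7.97 and 5.13, whereas *ZK1240.2*, *ZK1240.3*, *ZK1240.9* and *ZK1240.11* of the same stretch were called lower. *Y54G2A.28* was among the most even rises, with 0.291, 0.426 and 0.916 CPM in the controls and 6.57, 9.28 and 13 CPM after heat shock (log2 fold change 4.27, SE 0.31, edgeR adjusted p = 3.85e-06). *clec-221*, which encodes a C-type lectin, had 0.198, 0.447 and 1.15 CPM in the controls and 2.11, 6.87 and 30.9 CPM after heat shock (log2 fold change 3.92, edgeR adjusted p = 0.000152). Of 159 C-type lectin genes, however, 3 were higher (1.89%, against 1.37% of all tested genes) and 6 lower (3.77%, against 1.32%). The median log2 fold change of the family was -0.20. *T05A8.2* and *Y46H3A.5* had log2 fold changes of 5.24 and 6.23 but lost their calls in 1 and 5 of 12 leave-one-out fits. *Y46H3A.5* lies next to *hsp-16.2* and *hsp-16.41*. The pathogen-response gene *irg-2* had 0.476, 2.77 and 20.2 CPM in the controls and 16.08, 26.8 and 56.9 CPM after heat shock (log2 fold change 3.39, edgeR adjusted p = 0.0281), its groups overlapped, and its call was lost in 9 of 12 leave-one-out fits.

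F-box genes form a large and fast-evolving family in this nematode and encode putative substrate adaptors of SCF ubiquitin ligases. Of 336 tested, 15 were higher (4.46%, against 1.37% of all genes) and 3 were lower (0.893%, against 1.32%), and the median log2 fold change of the family was 0.29. The gene *fbxa-163* had 0, 0.219 and 3.03 CPM in the controls and 3.59, 7.17 and 25.4 CPM after heat shock (log2 fold change 4.98, SE 0.75, edgeR adjusted p = 0.00192). Its call was lost without N2 control replicate 3 and N2 heat shock replicate 1. *fbxa-37* and *fbxa-31* were more even, with log2 fold changes of 1.70 and 1.66 (edgeR adjusted p = 0.00264 and 0.00641) and no overlap between treatments. Members called together also lay together: *fbxa-30*, *fbxa-31*, *fbxa-34* and *fbxa-37* were within 1269568 and 1287140 of chromosome III, and *fbxa-161*, *fbxa-162* and *fbxa-163* with the MATH and BTB gene *bath-46* were within 1597906 and 1610730 of chromosome II. Genes of such families can share reads, so their values are less certain than others.

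Of 314 chemoreceptor genes, 9 were called higher (2.87%, against 1.37% of all tested genes) and 2 lower (0.637%, against 1.32%). All of these were low: the highest heat-shocked library of *sri-39* had 15.9 CPM and that of *srz-36*, annotated as a pseudogene, had 1.28 CPM. Of 35 genes for ABC transporters, edgeR called 4 higher (11.4%, against 1.37%) and none lower. DESeq2 called 5 higher and 3 lower, and 5 rises and 7 falls had an unadjusted edgeR p under 0.05. *pgp-8*, a P-glycoprotein gene, had 0.182, 1.14 and 1.71 CPM in the controls and 1.3, 8.68 and 20.3 CPM after heat shock (log2 fold change 3.03, edgeR adjusted p = 0.000654), and its groups overlapped. The other 3, *haf-7*, *abt-5* and *pgp-6*, had log2 fold changes of 0.87, 1.49 and 0.86 and lost their calls in 3, 8 and 10 of 12 leave-one-out fits.

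Genes of nutrient uptake, lipid metabolism and digestion were called lower. The smallest p among the falls belonged to *pept-1* (WBGene00003877, chromosome X from 6456872 to 6461767), which encodes the transporter of dipeptides and tripeptides in the intestine. It had 32, 43.5 and 53.4 CPM in the lowest, median and highest control and 10.9, 12.4 and 16.08 CPM after heat shock (log2 fold change -1.79, SE 0.16, edgeR adjusted p = 2.93e-05). The highest heat-shocked library lay below the lowest control. Of 25 amino acid and peptide transporter genes, 3 were lower (12%, against 1.32% of all tested genes) and none was higher. Beside *pept-1* these were *aat-6* (log2 fold change -2.04, edgeR adjusted p = 0.000543) and *aat-4* (-1.33, edgeR adjusted p = 0.00167). The remaining 22 were not called, and the median of the list was 0.02.

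Of 44 genes of fatty acid metabolism, 7 were lower (15.9%, against 1.32% of all tested genes) and 1 was higher (2.27%, against 1.37%). *elo-6* (WBGene00001244, chromosome IV from 5386629 to 5388559), an elongase that makes branched-chain fatty acids, had 187, 250 and 465 CPM in the controls and 35.1, 45.5 and 67.7 CPM after heat shock (log2 fold change -2.53, SE 0.23, edgeR adjusted p = 4.69e-05). Its log2 fold changes were -2.46 in N2 and -2.59 in the mutants. Its neighbor *elo-5*, which acts in the same synthesis and was picked after its values were seen, had 129, 144 and 306 CPM in the controls and 33.4, 81.2 and 89.2 CPM after heat shock (log2 fold change -1.22, edgeR adjusted p = 0.0136). *hacd-1*, of the same list, was lower too (log2 fold change -1.79, edgeR adjusted p = 0.000417). The acyl-CoA synthetase genes *acs-5* and *acs-1* were lower with log2 fold changes of -1.15 and -1.08 (edgeR adjusted p = 0.000554 and 0.0022). The single rise was *dgat-2*, a diacylglycerol acyltransferase gene of triglyceride synthesis (log2 fold change 1.66, edgeR adjusted p = 0.00696). Although 7 members fell, the median of the list was -0.08.

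Of 10 genes for peroxisomal acyl-CoA oxidases and other enzymes of ascaroside beta-oxidation, none was higher. Lower calls went to 3 of them (30%, against 1.32% of all tested genes). These were *acox-1.2*, *acox-1.3* and *acox-1.4*, which lie together on chromosome I between 12942280 and 12954003. *acox-1.4* had 17.4, 19.9 and 34.6 CPM in the controls and 3.90, 7.19 and 8.92 CPM after heat shock (log2 fold change -1.65, SE 0.23, edgeR adjusted p = 0.00111). *acox-1.2* and *acox-1.3* had log2 fold changes of -1.71 and -1.08 (edgeR adjusted p = 0.00068 and 0.00353). No heat-shocked library reached the lowest control for any of the 3, although paralogs of this kind may share reads.

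Of 24 intestinal and lysosomal protease genes, edgeR called 3 lower (12.5%, against 1.32% of all tested genes) and none higher. DESeq2 called 1 higher, and 2 rises had an unadjusted edgeR p under 0.05. *asp-13*, an aspartyl protease gene, fell most, with 61.2, 168 and 211 CPM in the controls and 13.6, 19.2 and 42.4 CPM after heat shock (log2 fold change -2.78, SE 0.33, edgeR adjusted p = 0.000417). *asp-8* and *cpr-8* were lower by less (log2 fold change -1.01 for both, edgeR adjusted p = 0.0119 and 0.013). Of 55 lipase and esterase genes, 5 were lower (9.09%, against 1.32% of all tested genes) and 2 were higher (3.64%, against 1.37%). *lips-11* was a rise, with 0.252, 1.74 and 4.33 CPM in the controls and 2.73, 8.09 and 24.5 CPM after heat shock (log2 fold change 2.73, edgeR adjusted p = 0.000417, groups overlapping), while *cest-1.2* was a fall (log2 fold change -2.14, edgeR adjusted p = 0.00288).

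Among detoxification enzymes, of 65 UDP-glucuronosyltransferase genes, 7 were lower and 2 higher (3.08%), with a family median of -0.26. *ugt-47* had 19.5, 23.4 and 31.9 CPM in the controls and 7.02, 8.98 and 12.07 CPM after heat shock (log2 fold change -1.42, SE 0.15, edgeR adjusted p = 0.000152). *ugt-22* had 90.1, 107 and 130 CPM in the controls and 18.02, 38.04 and 58.9 CPM after heat shock (log2 fold change -1.5, edgeR adjusted p = 0.00365). *ugt-24* and *ugt-48* were higher, with log2 fold changes of 1.36 and 1.35. Of 72 cytochrome P450 genes, edgeR called 5 lower (6.94%, against 1.32%). Among them were *cyp-25A2* (log2 fold change -1.13, edgeR adjusted p = 0.00464) and *cyp-35A2* (-1.06, edgeR adjusted p = 0.0202). The call of *cyp-35A2* was lost without N2 heat shock replicate 2. None of the 72 was called higher by edgeR, DESeq2 called 2 higher, and 4 rises had an unadjusted edgeR p under 0.05. Of 47 glutathione S-transferase genes, *gst-24* was higher (1.81) and *gst-26* lower (-0.78). Each is 2.13% of the family, against 1.37% higher and 1.32% lower over all tested genes. Of 230 nuclear hormone receptor genes tested, 3 were lower, namely *nhr-193* (-2.05), *nhr-114* (-1.53) and *nhr-137* (-1.2). This share, 1.3%, is near the 1.32% of all tested genes. The call of *nhr-137* was lost without N2 heat shock replicate 2, without *hsf-1*(*sy441*) control replicate 2 or without *hsf-1*(*sy441*) heat shock replicate 3. None of the 230 was called higher by edgeR, 3 were by DESeq2, and 6 rises had an unadjusted edgeR p under 0.05.

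Other large falls were in genes of varied function. *hrg-4*, an importer of heme in the intestine, had 6.58, 9.84 and 16.6 CPM in the controls and 0.616, 1.12 and 2.66 CPM after heat shock (log2 fold change -3.02, SE 0.36, edgeR adjusted p = 0.000383). *scav-4*, of the scavenger receptor family of mammalian CD36, had 5.82, 8.14 and 11.8 CPM in the controls and 1.04, 1.29 and 2.09 CPM after heat shock (log2 fold change -2.45, edgeR adjusted p = 0.000152). *math-40* and *math-14*, of the MATH domain family, had log2 fold changes of -2.47 and -2.48. Of 79 genes of the MATH and BTB domain families, 6 were lower (7.59%, against 1.32% of all tested genes) and 2 were higher (2.53%, against 1.37%). *drd-1*, *H25K10.1*, *F23F12.3* and *cpt-5* fell by 2.03, 2.87, 2.29 and 2.62 on the log2 scale. In the 8 genes of this paragraph named so far the 2 treatments did not overlap. *oac-54* had no count in some heat-shocked libraries and at most 1.86 CPM in any library (log2 fold change -3.47, edgeR adjusted p = 0.0184).

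**Figure D3:**
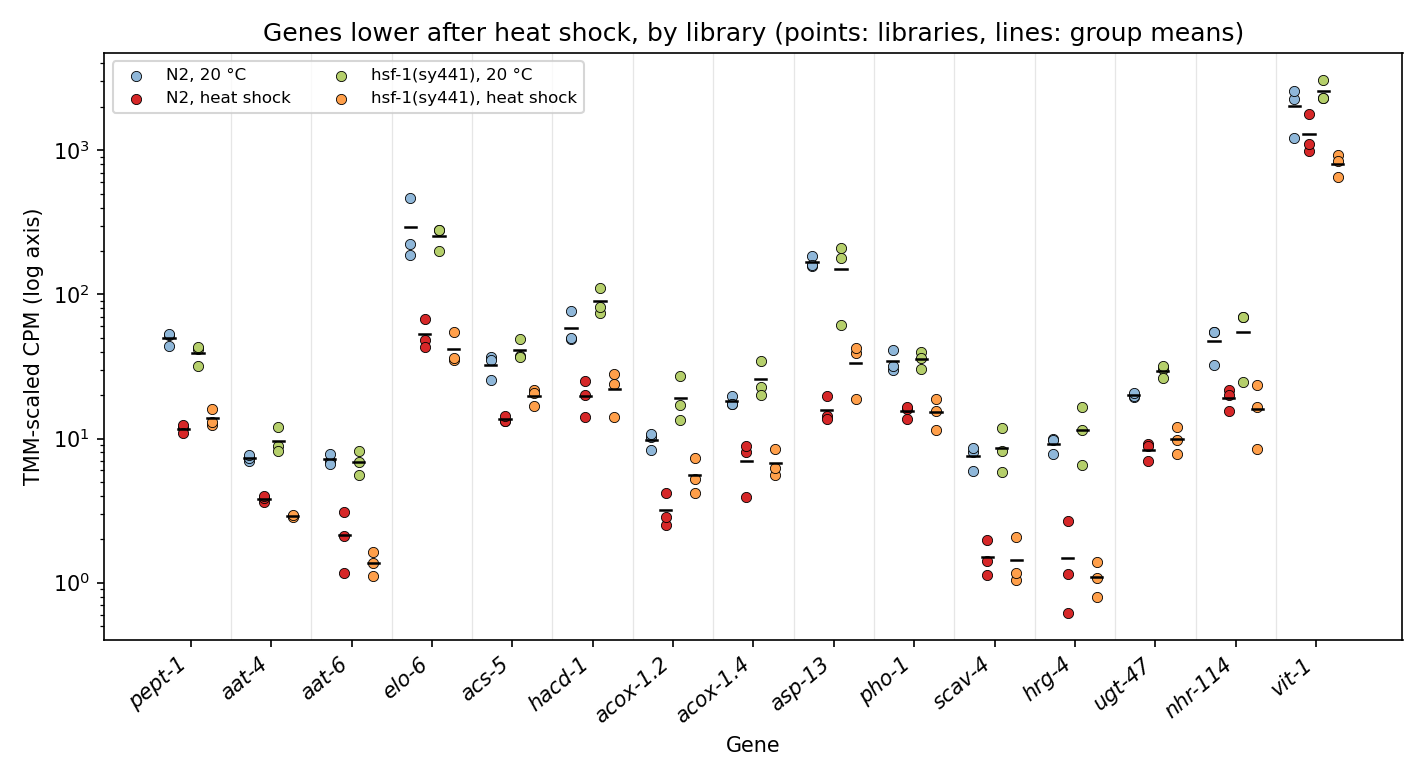
CPM (log axis) of 15 genes called lower, in each of the 12 libraries; points are libraries, lines the means of the 4 groups of 3. In all but *vit-1* every heat-shocked library lies below every control. On the log2 scale *elo-6* fell by 2.46 in N2 and by 2.59 in *hsf-1*(*sy441*), and *pept-1* by 2.08 and 1.5.

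The falls included markers of the intestine. Of 17 intestine markers, 3 were lower (17.6%, against 1.32% of all tested genes). These were *pept-1*, the acid phosphatase gene *pho-1* (log2 fold change -1.19, SE 0.15, edgeR adjusted p = 0.000654) and the sodium-proton exchanger gene *nhx-2* (-0.97, edgeR adjusted p = 0.035). The call of *nhx-2* was lost in 4 of 12 leave-one-out fits. None of the 17 was higher, 13 had a negative log2 fold change, and the median was -0.17. The summed level of the 17 ran from 1164 to 3350 CPM in the controls (median 2194) and from 1269 to 2449 CPM after heat shock (median 1987), and thus overlapped widely. In these bulk samples, fewer cells of a type and less RNA per cell cannot be told apart. Of 6 yolk protein genes, which are made in the intestine, *vit-1* alone was called, and it was lower (16.7%, against 1.32% of all tested genes). It had 1215, 2310 and 3084 CPM in the controls and 651, 952 and 1790 CPM after heat shock (log2 fold change -1.16, edgeR adjusted p = 0.0225). Its call was lost without N2 heat shock replicate 2 or without *hsf-1*(*sy441*) heat shock replicate 3. The summed yolk level was 11820 to 80890 CPM in the controls and 16480 to 54220 CPM after heat shock.

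Markers of the other tissues were not called in either direction by edgeR or DESeq2: none of 16 for the hypodermis, 20 for neurons, 20 for muscle, 24 for oocytes and embryos and 26 for the germ line, and none of these had an unadjusted p under 0.05. Their medians lay between -0.11 and 0.00. Of 66 sperm genes, *spe-47* alone was called by edgeR (log2 fold change 2.12, edgeR adjusted p = 0.017), and without N2 control replicate 3 it was not. This share, 1.52%, is near the 1.37% of all tested genes that were called higher. DESeq2 called 3 sperm genes higher. The part of tissue make-up in the falls was not tested. Of 79 genes for cytosolic ribosomal proteins, 78 had a negative log2 fold change, and the median was -0.20. None of the 79 was called by either tool, and 4 had an unadjusted p under 0.05, all lower. Their summed level was 103200 to 130200 CPM in the controls and 91860 to 112300 CPM after heat shock. Across the whole table the median stood at 0.02.

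**Figure D4:**
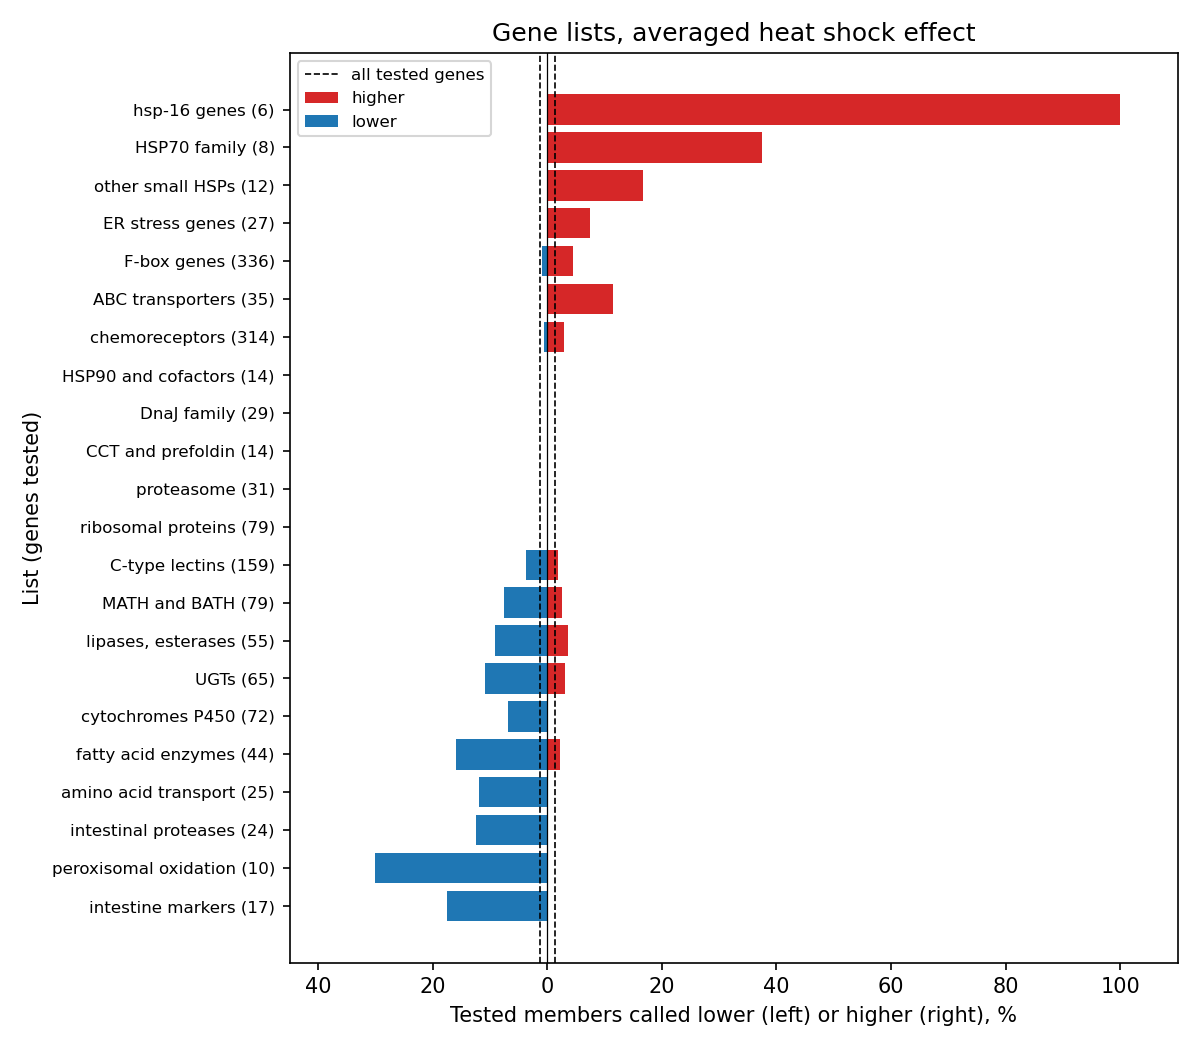
Share of the tested members of 22 gene lists that were called lower (bars to the left) or higher (bars to the right), in percent; the number tested is given after each name, and dashed lines mark the 1.32% and 1.37% of all tested genes. The *hsp-16* list reaches 100% higher, 3 of 8 HSP70 genes (37.5%) are higher, and the lists for lipid metabolism, transport and digestion lie mostly to the left.

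To see what the average over genotypes adds, the calls were set beside those of each genotype alone, from a model with a mean for each of the 4 groups. The effect was called for 180 genes in N2 (140 higher and 40 lower, 1% of the tested genes) and for 102 in *hsf-1*(*sy441*) (50 higher and 52 lower, 0.568%). Of the 481 genes called on the average, 57 were called in both genotypes, 82 in N2 only, 43 in *hsf-1*(*sy441*) only and 299 in neither. These last comprised 127 rises and 172 falls, with a median log2 fold change of 1.2 in size, against 2.73 among the 57. Among the genes that needed both genotypes to pass the test were *hsp-12.6*, *dve-1*, *fbxa-31*, *ugt-22*, *nhr-114*, *cyp-25A2*, *gst-26*, *acs-1* and the invertebrate lysozyme gene *ilys-5*. *ilys-5* was one of the most even, with 569, 768 and 1027 CPM in the controls and 430.04, 440.3 and 460.2 CPM after heat shock (log2 fold change -0.83, SE 0.15, edgeR adjusted p = 0.0061). The log2 fold changes of the 2 genotypes had the same sign in 480 of the 481. The exception was *sre-48*, a chemoreceptor gene without a count in the mutants. A call on the average by itself favors equal signs, so nothing is read from this count.

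Of the 245 genes called higher, 168 had the larger rise in N2, and the medians were 1.97 in N2 and 1.52 in *hsf-1*(*sy441*). Of the 236 called lower, 160 had the larger fall in *hsf-1*(*sy441*), with medians of -1.15 in N2 and -1.27 in the mutants. In the whole table, edgeR called 2 interactions (0.0111% of the tested genes), none of them among the 481. Of the 481, DESeq2 called 10, and 67 (13.9%) had an unadjusted edgeR p under 0.05, against 2.54% of all tested genes. In turn, 41 genes called in N2 and 2 called in *hsf-1*(*sy441*) were not called on the average. The 41 had a median log2 fold change of 2.80 in N2 and 0.27 in the mutants.

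**Figure D5:**
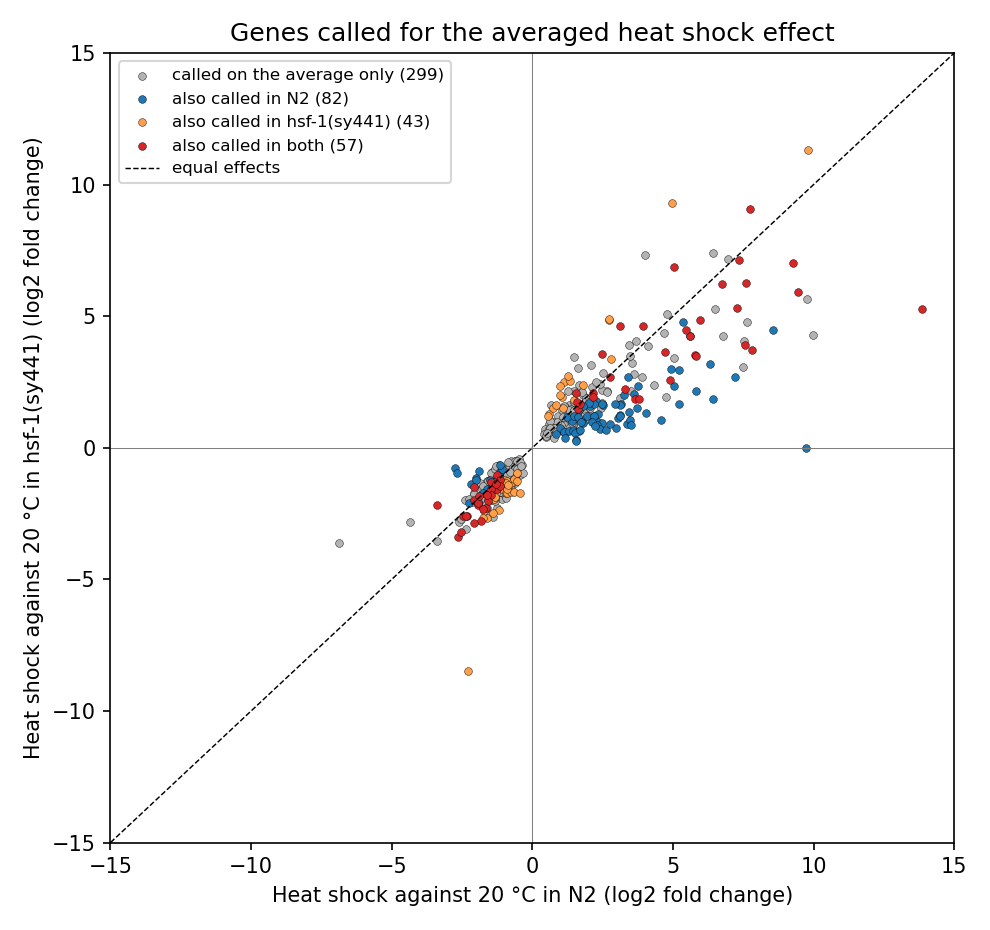
Log2 fold change of heat shock in *hsf-1*(*sy441*) against that in N2 for the 481 genes called on the average; each point is a gene, colors give whether it was also called in N2, in *hsf-1*(*sy441*) or in both, and the dashed line marks equal effects. Points lie in the upper right and lower left, and the 299 genes called on the average only have mostly smaller effects than the 57 called in both.

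Of the 245 rises, 69 (28.2%) had another rise within 10000 bases, in 27 clusters, whereas 5.75% of the other tested genes had a rise that near. Of the 236 falls, 47 (19.9%) had another fall within this distance, in 20 clusters, against 5.85% of the other genes. These shares are descriptions, with no test. The largest held 5 genes. Since reads can run past the end of an induced gene into the next one, genes that start within 2000 bases past the end of a rise of at least 2-fold were counted: of 101 on the same strand, 14 were called higher (13.9%), against 1.37% of all tested genes. Among the 14 were *hsp-16.1*, *hsp-16.11*, *Y53F4B.7*, *Y53F4B.62*, *fbxa-161* and *Y58A7A.3*. On the opposite strand 2 of 11 were higher, *hsp-16.48* and *hsp-16.49*. The part of such reads in the rises of neighbors was not tested. In all, 156 of the 481 called genes overlap another annotated gene other than a piRNA.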

How the data were processed

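Poly-A RNA of 12 samples was sequenced, and the authors counted reads per gene with HISAT2 and HTSeq on WBcel235 (tools per the labels; versions, strand setting and handling of reads with several matches are not given in the sources used here). The deposited values are raw counts of 46934 genes. Symbols came from the table for 44160 and from RefSeq coordinates for 2733. Untreated samples, titled K, were read as the C columns. Low genes were removed by filterByExpr (edgeR 4.0.16, R 4.3.3), and counts were scaled by TMM and tested with the robust quasi-likelihood F test and Benjamini-Hochberg adjustment over all 17946 genes tested. The model held genotype and treatment; a model with 4 means gave the effect in each genotype and the interaction. Principal components used log2 CPM with a prior count of 2. DESeq2 1.42.0 was an alternative. The scripts were tested on simulated data. Members and gene lists were chosen with earlier results of these data known. After the files were opened, serpins were removed from the chemoreceptor list and *dpy-18* from the collagen list. The text names genes of the largest changes (20 rises and 12 falls with a mean of at least 1 CPM), of the 10 smallest p in each direction, up to 4 called members of each list and the genes with a called interaction; others were picked after their values were seen.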

Additional observations from a re-analysis of the deposited data

Results flagged for a closer look

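The heat shock effect of 2 genes differed between the genotypes by edgeR's test of the interaction, and neither was called on the average. *gst-36*, a glutathione S-transferase gene, had 15 ± 0.720 CPM in untreated N2 and 138 ± 22.9 CPM in heat-shocked N2 (SD, n = 3), but 27 ± 2.82 and 29.3 ± 5.85 CPM in untreated and heat-shocked *hsf-1*(*sy441*). The log2 fold change was 3.2 in N2 and 0.12 in the mutants (interaction -3.08, SE 0.29, edgeR adjusted p = 0.00124), and the average of 1.66 had an edgeR adjusted p of 0.0998. With a replicate block within genotype, the interaction was -3.08 (edgeR adjusted p = 0.0517) and no gene kept an interaction call; in the other alternatives the adjusted p of *gst-36* ran up to 0.0482. It overlaps *scav-5* on the opposite strand, which was lower on the average (log2 fold change -1.43, edgeR adjusted p = 0.0077).

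*C01G5.3* had no count in untreated N2, 1.48 ± 0.369 CPM in heat-shocked N2, 0.200 ± 0.0481 CPM in untreated and 0.152 ± 0.0883 CPM in heat-shocked *hsf-1*(*sy441*) (SD, n = 3). The fitted interaction was -10.31 (edgeR adjusted p = 0.0391), a value that depends on the prior count, and the call was lost in 9 of 12 leave-one-out fits.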

How the results depend on the processing

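Of 115 named genes that were called, 64 kept their call in all 27 alternatives that gave them an adjusted p, 88 in all 12 fits without 1 library, and none reversed. Calls on the average rose from 481 to 957 with DESeq2 (515 higher, 442 lower) and to 1140 without the 4 libraries of the opening (530 and 610), and dropped to 205 without the genotype term (92 and 113). Without 1 library they ran from 320 to 587 (143 to 326 higher, 159 to 282 lower). Interaction calls, 2 in the main analysis, were 30 with DESeq2, 1 with at least 1 CPM in 6 libraries, 1 without replicate 1 of both mutant groups, 16 without the 4 libraries, and 1 to 4 without 1 library. Genes whose 6 heat-shocked libraries lay above all controls, 141 in all libraries, numbered 83 with the CPM filter. Without N2 control replicate 3 and N2 heat shock replicate 1, 265 lay above and 309 below; without replicate 1 of both mutant groups 326 and 366; without the 4 libraries 638 and 840; and without 1 library 152 to 302 and 174 to 307, since fewer libraries leave fewer chances to overlap. Otherwise the causes were not tested.

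Same-numbered control and heat-shocked samples deviated together in the mutants (correlations 0.342, 0.336 and 0.199, each the highest for its number among the mutants) but not in N2 (-0.363, 0.218 and -0.316), so the numbers were not taken as pairs for the average. With the replicate block, 481 genes were called on the average (428 of them shared) and 1 interaction; with a replicate block within genotype, 402 and 0, and among the named genes *vit-1*, *nhx-2*, *nhr-137*, *math-18*, *ugt-48*, *abt-5*, *pgp-6*, *his-5*, *col-84*, *ins-37* and *spe-47* lost their calls (adjusted p from 0.0532 to 0.126).

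Genes of few counts are imprecise, and 22 rises and 6 falls had a mean under 1 CPM in both treatments. The planned promoter motif counts were not run. The share of higher genes past the end of a rise stayed between 9.47% and 19.1% on the same strand.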

Other observations

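Some non-coding RNAs were called higher in these poly-A libraries. Of 169 tested genes annotated as ncRNA, 9 were higher (5.33%, against 1.37% of all tested genes), of 94 lincRNAs 2 (2.13%), of 33 antisense RNAs 3, of 20 tRNAs 1 and of 11 miRNA genes 1, while none of 28 snoRNAs or 4 snRNAs was called by edgeR or DESeq2 or had an unadjusted edgeR p under 0.05. These shares were not tested. The largest of the 9 by fold was *rpr-1*, the RNA component of RNase P, with 0.0792, 0.212 and 0.428 CPM in the lowest, median and highest control and 15.1, 17.9 and 99.5 CPM after heat shock (log2 fold change 7.25, SE 0.66, edgeR adjusted p = 4.16e-05). It lies in *ints-8*, on the opposite strand, whose log2 fold change was 0.17. *T04C9.8* had no count in the controls and 0.147 to 0.285 CPM after heat shock, at least 32.2-fold higher if the controls as a group are set to a floor of 3 counts. It is 1 of the 14 genes past the end of a rise counted above. On the same strand it follows *T04C9.11*, another ncRNA called higher (log2 fold change 5.19), and the part of reads running past that gene was not tested. *mir-239.2* had 0, 0.0676 and 0.109 CPM in the controls and 0.256, 0.411 and 1.37 CPM after heat shock (log2 fold change 3.47, edgeR adjusted p = 0.0398). The 2 ribosomal RNA genes of mitochondrial DNA, WBGene00014454 and WBGene00014472, rose by 2.09 and 2.49 on the log2 scale (edgeR adjusted p = 0.0191 and 0.0224), while none of the 10 protein genes of that genome that were tested was called by either tool or had an unadjusted p under 0.05. Apart from *rpr-1*, these genes were picked after their values were seen.

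Genes of heme and iron handling were among the falls and were picked after their values were seen. Beside *hrg-4*, *hrg-1* fell from 7.54, 23.9 and 48.5 CPM to 3.15, 7.54 and 12.9 CPM (log2 fold change -1.71, edgeR adjusted p = 0.0078) and *hrg-7* from 43.6, 122 and 215 CPM to 13.4, 38.6 and 67.2 CPM (-1.73, edgeR adjusted p = 0.00902). *hrg-2*, *hrg-3*, *hrg-5*, *hrg-6*, *hrg-9* and *hrg-10* were not called, with log2 fold changes from -1.92 to -0.11. The iron exporter gene *fpn-1.2* fell as well (log2 fold change -1.89, edgeR adjusted p = 0.0093).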
